A study of Homo sapiens with 9 samples.

Results

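The comparison of the CBX1 reader with its W42A mutant covered 6 Chrom-seq libraries from HEK293T cells, an established human embryonic kidney line, out of 9 libraries in all. In the 3 CBX1 libraries, the cells had been transfected with the chromodomain of CBX1 (residues 18 to 82), with a nuclear localization signal and fused to an array of SunTag epitopes. In the 3 CBX1_W42A libraries, the same fusion carried alanine in place of tryptophan 42. The 3 control libraries, used below only for reference, came from cells with the epitopes and no reader. All 9 samples of cells also received the peroxidase APEX2 joined to an antibody fragment that binds the epitopes, and were labeled 48 hours after transfection by 30 min in 500 μM biotin-aniline, with hydrogen peroxide (1 mM) added for 1 min. RNA that carried biotin was captured on streptavidin, and its polyadenylated part was sequenced. The question was which RNAs near the reader depended on tryptophan 42. A gene was tested when the 6 libraries together held more than 18 of its counts, as was the case for 19360 of 57820 annotated genes. The readers were fragments made from transfected DNA in 1 cell line, and their protein levels were not analysed here.

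CBX1 is HP1 beta, a heterochromatin protein. Its chromodomain folds around the tail of histone H3 and holds trimethylated lysine 9 (H3K9me3) in a cage of aromatic residues, of which tryptophan 42 is one. H3K9me3 is laid down by SETDB1, SUV39H1 and related enzymes on satellite repeats, transposable elements and the clustered KRAB zinc finger (ZNF) genes, many of which are on chromosome 19. In proximity labeling an RNA is captured when it is close to the enzyme, so its level reflects both how much of it the cell holds and where it is; a difference between readers in these data cannot tell the 2 apart.

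The mutated residue is shown in its genomic context, since the whole comparison rests on this codon. In the human CBX1 gene it lies in a coding exon, exon 2 of the annotated transcript used, at chr17:46154241-46154243 of hg19 on the minus strand. The 44 bases around it, chr17:46154227-46154270, are printed 5′ to 3′ with the codon of tryptophan 42 in capitals. These are bases of the human gene and not of the transfected DNA, whose CBX1 fragment the study also writes as mCBX1 and whose own codon is not shown here.
CBX1: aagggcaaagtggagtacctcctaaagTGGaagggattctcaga

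The level of the CBX1 gene itself differed little between the groups. It had 541, 528 and 560 CPM (counts relative to the library size scaled by TMM factors, over the 9 libraries) in CBX1 replicates 1, 2 and 3 and 575, 537 and 658 CPM in the CBX1_W42A replicates, and these ranges overlapped. The control without a reader had 692, 554 and 604 CPM. The log2 fold change of CBX1 against CBX1_W42A was -0.14 (standard error, SE, 0.11, Benjamini-Hochberg adjusted p = 0.55, edgeR quasi-likelihood test, as for each adjusted p below). This gene therefore does not show by its count which reader was present, and the labels were taken as given.

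The 6 libraries held between 8703898 and 11082852 counts, and their replicates varied with a biological coefficient of variation of 11.1%. No pair of replicates held identical counts. In principal components of the 500 genes of highest variance, the first (36.3%) set the CBX1 libraries, at -13.3 to -8.88, apart from the CBX1_W42A libraries, at 6.36 to 19.9, with CBX1_W42A replicate 3 farthest out. Noncoding genes took 4.36% to 4.59% of the counts with CBX1 and 3.95% to 4.13% with CBX1_W42A. All 9 markers of HEK293T cells (such as VIM and NEFM) were present in every library, with a summed level of 1220 to 1430 CPM with CBX1 and 1280 to 1480 CPM with CBX1_W42A. The 13 markers of blood, liver, fibroblast, endothelium, muscle and astrocytes summed to 44.1 to 52.6 CPM and 42.2 to 55.5 CPM, and CD3E, HBB and COL1A2 were at 0 in all 9 libraries. Of the fibroblast markers, COL1A1 (22.3 to 39.6 CPM) and COL3A1 (5.46 to 12 CPM) were present in every library. The study describes the replicates as independent, and the p-values below measure the spread between these libraries. The labels name no batch, but the CBX1_W42A samples are numbered in the series apart from the CBX1 and control samples. A batch that went with the reader could therefore not be told apart from the mutation, and was not tested.

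With the intact chromodomain, 154 RNAs were higher than with W42A and 39 RNAs lower in the edgeR quasi-likelihood test. The thresholds were 0.05 for the adjusted p and 0.75 for the size of the log2 fold change. The 154 and 39 RNAs are 0.795% and 0.201% of the genes tested. The higher RNAs included 22 ZNF genes of chromosome 19, and of the other coding genes ALPK3 and C19orf18 had the smallest p. PDGFA, NGFR, EGR2 and DLL1 were among the lower RNAs. In 143 of the 154, every CBX1 library was above every CBX1_W42A library (11.1% of all genes tested), and in 38 of the 39 every CBX1 library was below (9.94% of all genes tested). DESeq2 called 138 higher and 36 lower, of which 132 and 36 were among the calls above. Another 101 genes higher and 140 lower passed the adjusted p with a smaller change, so that 255 (1.32% of the genes tested) and 179 (0.925%) passed without the minimum fold change. Only 2 higher genes and 0 lower genes passed a test of whether the change exceeded log2 0.75. The count of higher RNAs fell to 68 without CBX1 replicate 1, 87 without CBX1 replicate 3 and 90 without CBX1_W42A replicate 3, and that of lower RNAs to 17, 18 and 25. Of the 154 and 39, 47 and 10 were called in every one of the 6 fits that left out 1 library.

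**Figure D1:**
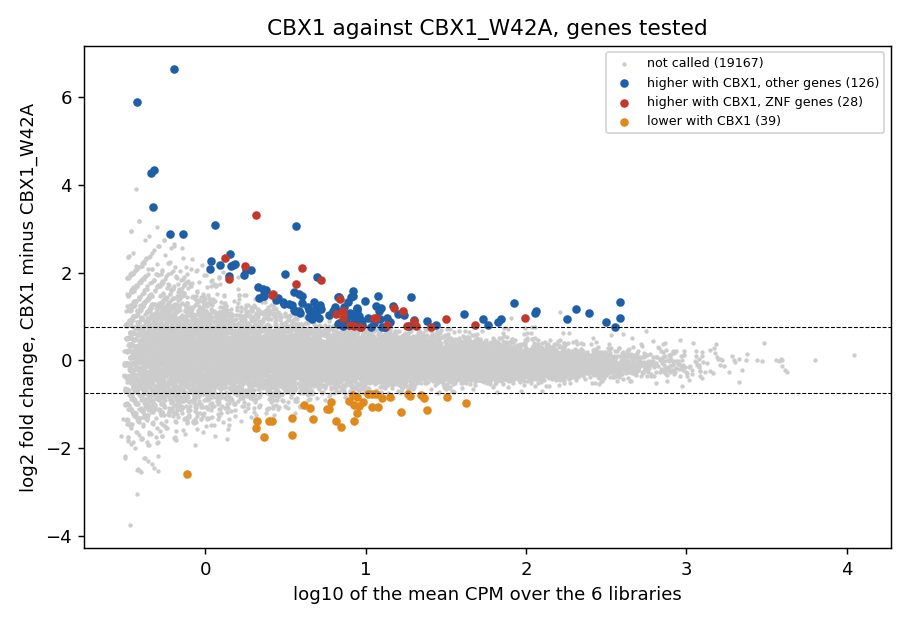
Each point is 1 of the 19360 genes tested, with the log10 of its mean CPM over the 6 libraries on the x axis and its log2 fold change (CBX1 minus CBX1_W42A) on the y axis; dashed lines mark 0.75 in each direction. The 28 ZNF genes called higher (red) lie among the other genes called higher (blue), and none of the 39 genes called lower (orange) is a ZNF gene.

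ZNF genes of chromosome 19 formed the main group. Of 189 tested, 22 (11.6%) were higher with CBX1 and 0 were lower, against 0.795% and 0.201% of all genes tested; DESeq2 also called 22 of them. Without the minimum fold change 40 were higher and 0 lower. The median log2 fold change over the 189 was 0.38 and 84.7% were positive, where all genes tested had a median of -0.0038 and 49.4% positive. KRAB zinc finger proteins are repressors that bind transposable elements and recruit the H3K9 methylation machinery, and their own genes are known to carry H3K9me3 over the zinc finger exons. Members can share reads with close relatives of the family, and how the authors' counting treated reads that match several copies is not given in the sources used here.

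ZNF331, a KRAB zinc finger gene at chr19:54024235-54083523, had the highest level among the named members. It had 133, 138 and 120 CPM in CBX1 replicates 1, 2 and 3 and 60.5, 73.0 and 64.4 CPM in the CBX1_W42A replicates, with no overlap. The log2 fold change was 0.96 ± 0.11 (SE; adjusted p = 5.28e-05, edgeR quasi-likelihood test). The control had 48.6, 60.5 and 54.2 CPM, and its highest library was level with the lowest CBX1_W42A library.

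ZNF528 (chr19:52901102-52921665) had 7.05, 6.05 and 6.60 CPM with CBX1 and 1.63, 1.89 and 0.949 CPM with CBX1_W42A. ZNF681 (chr19:23921997-23941693) had 8.73, 6.95 and 9.03 CPM against 2.53, 2.73 and 1.58 CPM. Both sets were far apart, with log2 fold changes of 2.11 (SE 0.29) and 1.83 (SE 0.26). ZNF429 (chr19:21679484-21739072), which shares part of its span with LINC00664 on its strand, had 23.8, 23.8 and 23.2 CPM against 11.6, 12.2 and 8.12 CPM, a log2 fold change of 1.13 ± 0.16 (SE). ZNF568 had 17.5, 23.2 and 22.4 CPM against 9.05, 11.1 and 7.17 CPM, a log2 fold change of 1.19 ± 0.18 (SE). The adjusted p of these 4 genes was between 0.000635 and 0.000807 in the edgeR quasi-likelihood test. HKR1 and ZIK1, zinc finger genes of chromosome 19 whose symbols hold no ZNF and which the list therefore left out, were higher too. HKR1 had 108, 85.8 and 84.4 CPM with CBX1 and 48.9, 57.7 and 37.3 CPM with CBX1_W42A, and ZIK1 had 13.5, 12.9 and 9.13 CPM against 4.52, 3.78 and 4.53 CPM; their log2 fold changes were 0.93 and 1.44.

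Summed over the 189 genes, the level was 4169, 4236 and 4086 CPM in the CBX1 libraries and 3146, 3699 and 3155 CPM in the CBX1_W42A libraries. The control had 3235, 3519 and 3433 CPM, so the CBX1_W42A libraries spanned the control range and CBX1_W42A replicate 2 was the mutant library nearest to CBX1. Without that replicate 35 members were called higher, and with any other library left out between 10 (without CBX1_W42A replicate 1) and 17 were. By the scalings other than TMM, between 22 and 25 were called higher.

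A part of the repeated zinc finger coding sequence is shown to make the shared letters visible, for the 4 higher ZNF genes of smallest p in which the letters occur in this spacing. ZNF331, which has a smaller p than all 4, and ZNF528, which has a smaller p than 3 of them, were passed over because no such pair was found in them. Each is 99 bases of an exon of hg19, 5′ to 3′ on the gene's own strand, with 2 copies of the linker between neighbouring fingers in capitals, 84 bases apart. They are chr5:178506232-178506330 (plus strand), chr19:23926669-23926767 (minus strand), chr19:21720281-21720379 (plus strand) and chr19:37441628-37441726 (plus strand).
ZNF354C: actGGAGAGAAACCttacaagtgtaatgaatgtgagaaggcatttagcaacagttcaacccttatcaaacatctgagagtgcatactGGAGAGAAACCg
ZNF681: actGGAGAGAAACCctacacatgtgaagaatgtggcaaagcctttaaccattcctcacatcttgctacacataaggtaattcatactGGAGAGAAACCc
ZNF429: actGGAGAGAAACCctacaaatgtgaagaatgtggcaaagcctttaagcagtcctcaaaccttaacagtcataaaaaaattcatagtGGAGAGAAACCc
ZNF568: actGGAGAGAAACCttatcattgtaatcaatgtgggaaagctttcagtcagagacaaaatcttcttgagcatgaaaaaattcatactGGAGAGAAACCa

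The linker letters GGAGAGAAACC are the run of 11 bases that most ZNF genes of chromosome 19 share, with at least 1 copy in the exons of 127 of the 189 tested. They were searched in the exons of 14390 protein-coding genes on the gene's own strand. At least 3 copies were found in 153 of them (1.06%), in 22 of the 108 matched genes higher with CBX1 (20.4%) and in 0 of the 31 lower. On chromosome 19, the 98 genes with at least 3 copies had a median log2 fold change of 0.48 and 16 were higher (16.3%). The 947 genes with fewer than 3 copies, or none, had a median of -0.0020 and 18 were higher (1.90%). Because the letters were chosen from the ZNF genes, this split mostly sets ZNF genes against others. Within the 189 ZNF genes of chromosome 19, the 96 with at least 3 copies had a median of 0.48 and 16 were higher. Those with fewer than 3 copies, or none, had a median of 0.27 and 6 were higher. On the other chromosomes, the 55 genes with at least 3 copies had a median of 0.21 and 6 were higher (10.9%). Of the 13290 genes there with fewer than 3 copies, or none, 68 were higher (0.51%), and all 31 lower genes were among them. The match is a description of shared letters, and genes with it are relatives of each other.

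On other chromosomes, 6 of 228 ZNF genes tested (2.63%) were higher and 0 lower, with a median log2 fold change of 0.052. ZNF354C (chr5:178487416-178510538) was at 4.03, 3.47 and 3.88 CPM with CBX1 and at 0.181, 0.630 and 0.316 CPM with CBX1_W42A, where the highest mutant library held 6 counts. This gave a log2 fold change of 3.31 ± 0.45 (SE; adjusted p = 0.000561, edgeR quasi-likelihood test). ZNF501 and ZNF502, neighbours on chromosome 3, had log2 fold changes of 0.97 (SE 0.17) and 1.40 (SE 0.26), and ZNF239 on chromosome 10 had 0.82 (SE 0.17). The remaining members were ZNF454 and ZNF141. Of 38 ZSCAN, ZKSCAN and ZFP genes, which code for related zinc finger proteins, 2 were higher: ZFP2 with 0.96 (SE 0.20) and ZSCAN18 with 0.77 (SE 0.17).

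Leaving out the genes with ZNF in their symbol, 82 of 14176 protein-coding genes tested were higher. They made up 53.2% of the higher RNAs, beside 73.2% of all genes tested. The 82 still include zinc finger genes such as HKR1, ZIK1, ZFP2 and ZSCAN18. ALPK3 (chr15:85359911-85416713), which codes for an alpha kinase known from heart muscle, had the smallest p. Its level was 28.3, 27.9 and 27.7 CPM with CBX1 and 10.04, 11.7 and 8.96 CPM with CBX1_W42A. The log2 fold change was 1.43 (SE 0.15, adjusted p = 2.99e-05, edgeR quasi-likelihood test), and the control, at 10.4, 7.72 and 9.57 CPM, overlapped the mutant. C19orf18 (chr19:58469805-58485902), a small gene among zinc finger genes near the end of chromosome 19, had 7.5, 7.06 and 5.05 CPM against 0.633, 0.735 and 0.949 CPM. This gave a log2 fold change of 3.05 ± 0.33 (SE; adjusted p = 4.94e-05 in the same edgeR quasi-likelihood test). The CBX1 libraries were apart from all 6 others for this gene, since the control had 0.678, 0.112 and 1.35 CPM.

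ANPEP, the membrane aminopeptidase CD13, had 14.2, 15.1 and 13.3 CPM with CBX1 and 5.88, 5.15 and 5.48 CPM with CBX1_W42A, with the control lower still at 3.20, 2.13 and 3.07 CPM. IL17F, a cytokine of T cells, had 9.29, 6.50 and 7.87 CPM against 2.44, 2.0 and 1.79 CPM, and CYP2E1, a liver cytochrome P450, had 16, 16.1 and 16.9 CPM against 5.25, 7.46 and 7.91 CPM. The log2 fold changes were 1.35 (SE 0.18), 1.89 (SE 0.26) and 1.24 (SE 0.18). For each of the 3, the CBX1 libraries were above all 6 others. AC003006.7, a gene model of chromosome 19, had a log2 fold change of 1.25 ± 0.19 (SE), but it shares span with ZNF551, AC003006.1 and ZNF776, which leaves 41.1% of its span unshared.

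**Figure D2:**
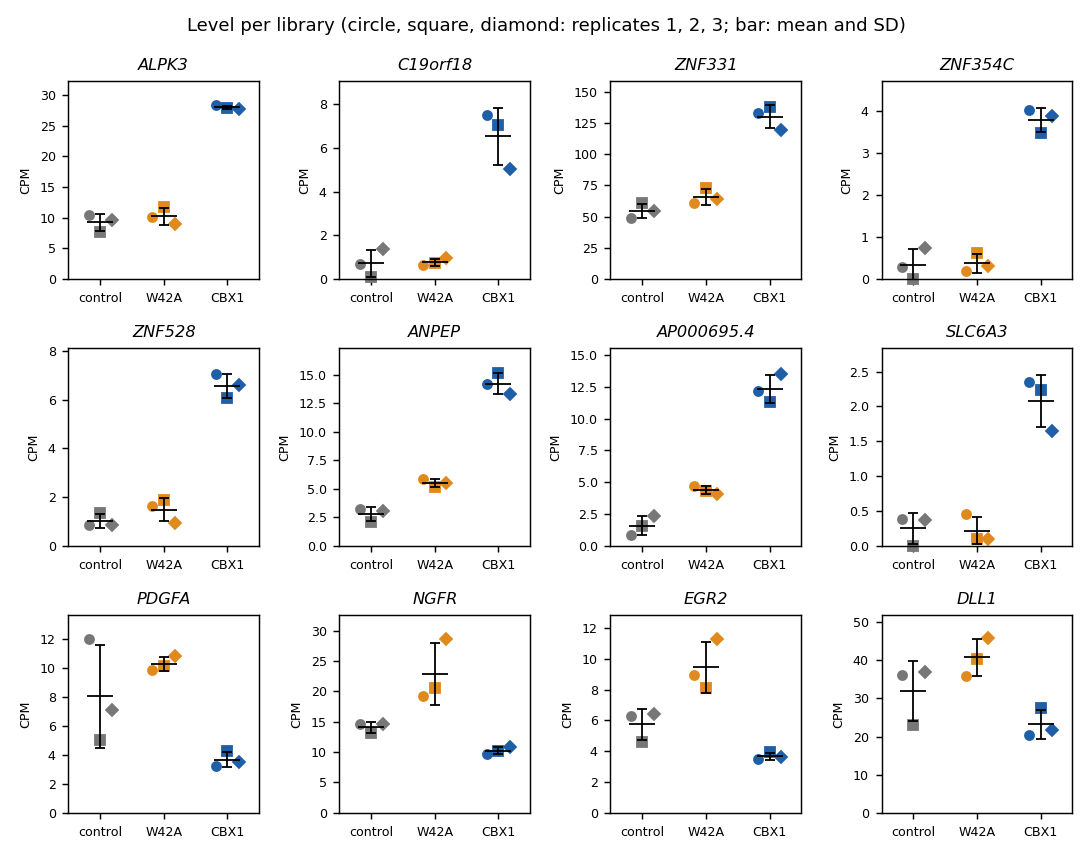
Each panel shows the CPM of 1 gene (y axis, from 0) in the 3 control, 3 CBX1_W42A and 3 CBX1 libraries (x axis); circle, square and diamond are replicates 1, 2 and 3, and the bar is the mean with its SD. In the top 8 panels all CBX1 libraries lie above all CBX1_W42A libraries, and in PDGFA, NGFR, EGR2 and DLL1 all lie below.

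Solute carriers, which transport small molecules across membranes, are a list added after the data were seen. Of 259 tested, 5 (1.93%) were higher and 0 lower, beside 0.795% and 0.201% of all genes tested. The median log2 fold change over the 259 was -0.035 and 47.1% were positive. Apart from SLC37A2, a sugar phosphate carrier (1.19, SE 0.19), the 5 belong to SLC6, the family of sodium-coupled transporters of neurotransmitters and amino acids. The SLC6 genes tested were not counted as a group, so no share of that family is given. SLC6A3, the dopamine transporter, had 21, 20 and 17 counts with CBX1 and 5, 1 and 1 counts with CBX1_W42A, a log2 fold change of 3.08 ± 0.59 (SE; adjusted p = 0.00694, edgeR quasi-likelihood test). SLC6A13 and SLC6A12, transporters of GABA and betaine that lie side by side on chromosome 12, had 1.33 (SE 0.22) and 1.09 (SE 0.23). SLC6A20 was also higher, but was still called in only 1 of the 6 fits that left out 1 library. The single higher member of 49 collagen and laminin genes was COL24A1, with 0.79 (SE 0.14).

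Of the 154 higher RNAs, 44 (28.6%) were noncoding, beside 24.6% of the genes tested, so the share was near the background. Over all 4767 noncoding genes tested the median log2 fold change was 0.13, beside -0.023 over protein-coding genes. Their median level with CBX1 was 1.52 and 28.2 CPM. By annotated type, the 44 included 16 antisense genes, 12 lincRNAs and 11 pseudogenes, which are 0.793%, 0.841% and 1.21% of the tested genes of each type. AP000695.4, an antisense gene at chr21:37818029-37904706, had 12.2, 11.3 and 13.5 CPM with CBX1 and 4.71, 4.31 and 4.11 CPM with CBX1_W42A. The log2 fold change was 1.47 ± 0.20 (SE; adjusted p = 0.000561, edgeR quasi-likelihood test), and the control was below both at 0.871, 1.57 and 2.33 CPM. It shares span with AP000695.6 and AP000695.1, which leaves 57.0% of its span free.

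CTD-2162K18.5, LINC00665 and CTD-2561J22.2, all on chromosome 19, had log2 fold changes of 1.47 (SE 0.20), 1.43 (SE 0.24) and 1.57 (SE 0.27). LINC00665 was at 9.29, 9.19 and 11.5 CPM against 2.62, 4.73 and 3.69 CPM. AL035610.2, a lincRNA of chromosome 21, had 13, 9 and 14 counts with CBX1 and 0 in all CBX1_W42A libraries; against a floor of 3 counts over the group it was at least 12.8-fold higher. AC087491.2, LINC00202-1 and RP11-108K14.4 had 1.52 (SE 0.28), 0.95 (SE 0.18) and 0.96 (SE 0.18). Among 21 chromatin-associated lncRNAs, 0 were called; the smallest p was that of LINC00662, with 45.3, 42 and 39.5 CPM against 30.9, 31.5 and 26.3 CPM and a log2 fold change of 0.50 ± 0.12 (SE; adjusted p = 0.0315 by the edgeR quasi-likelihood test with Benjamini-Hochberg adjustment), under the minimum fold change. Summed over the 21, the level was 5089, 5742 and 4950 CPM with CBX1, 4326, 4110 and 4107 CPM with CBX1_W42A and 3047, 2716 and 3021 CPM in the control, so the 3 groups did not overlap. Most of the sum was MALAT1, named after its values were seen, which had 3348, 4128 and 3026 CPM with CBX1 and 2719, 2707 and 2501 CPM with CBX1_W42A, a log2 fold change of 0.39 that did not pass the test (adjusted p = 0.075, edgeR quasi-likelihood test).

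By position, chromosome 19 held 39 of the 154 higher RNAs (25.3%) and 6.83% of the genes tested, so 2.95% of its 1323 tested genes were higher and 1 was lower. Without its coding ZNF genes, 17 of 1134 (1.5%) were higher, with a median log2 fold change of 0.011. The share of 1.5% was still above the 0.795% of all genes tested. The 17 include zinc finger genes without ZNF in their symbol, such as HKR1, ZIK1 and ZSCAN18. Coding ZNF genes were 22 of the 39 higher RNAs of chromosome 19. On chromosome 21, 3 of 190 genes tested (1.58%) were higher. The share was highest in the window from 20 to 25 Mb, the zinc finger cluster next to the centromere, where 7 of 27 genes (25.9%) were higher and the median log2 fold change over all 27 was 0.72. There the 22 ZNF genes had a median of 0.70 and the few other genes a median of 0.84. From 55 to 60 Mb, at the other end, 11 of 129 genes (8.53%) were higher, with a median of 0.35 over 45 ZNF genes. In the first 10 Mb, 0 of 185 and 0 of 102 genes were higher, although the 12 ZNF genes from 5 to 10 Mb had a median of 0.31. The 3 ZNF genes from 45 to 50 Mb had a median of -0.37.

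**Figure D3:**
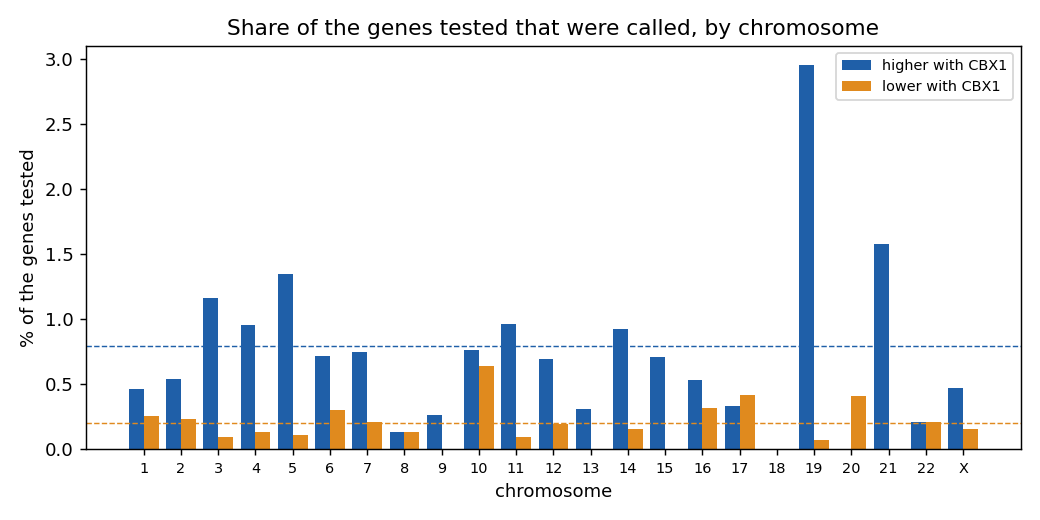
Bars give the percentage of the genes tested on each chromosome (x axis) that were higher (blue) or lower (orange) with CBX1; dashed lines are the same over all chromosomes, 0.795% and 0.201%. Chromosome 19 stands out at 2.95% higher (1.5% without its coding ZNF genes), and no gene of chromosome 18 was called.

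Higher RNAs also lay near each other. Of the 154, 53 (34.4%) had another higher gene starting within 500 kb, beside 8.41% of all genes tested. Outside chromosome 19 this held for 20 of 115 (17.4%), beside 6.84%. Besides SLC6A13 with SLC6A12 and ZNF501 with ZNF502, such neighbours were ZNF354C, ZFP2, ZNF454 and RP11-281O15.4 on chromosome 5, ZNF141 and ZNF876P on chromosome 4, CYP2E1 and RP11-108K14.4 on chromosome 10, MGAM and RP11-1220K2.2 on chromosome 7, IL34 and RP11-296I10.3 on chromosome 16, DHRS2 and C14orf164 on chromosome 14, and POPDC2 and RP11-18H7.1 on chromosome 3. CYP2E1 and RP11-108K14.4 share span on 1 strand. Of the 39 lower RNAs, 2 (5.13%) had such a neighbour, beside 2.74% of the genes tested: NGFR and NXPH3 on chromosome 17.

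Another 11 higher calls differed from the rest, because their CBX1 and CBX1_W42A libraries overlapped. They included the ribosomal protein genes RPS25, RPL31, RPL37, RPL23, RPS23, RPL35A and RPL37A, with MRPS18C of the mitochondrial ribosome, LSM3 of the spliceosome and UQCRH of the respiratory chain; those outside the lists were named after their values were seen. RPL31 had 943, 221 and 496 CPM in CBX1 replicates 1, 2 and 3, 264, 200 and 191 CPM in the CBX1_W42A replicates and 160, 546 and 217 CPM in the control. High levels thus fell in CBX1 replicates 1 and 3 and control replicate 2. RPS25 had 211, 81.7 and 182 CPM against 88.1, 59.6 and 67.7 CPM, and RPL37 had 721, 279 and 541 CPM against 307, 249 and 229.9 CPM.

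Of 81 cytosolic ribosomal protein genes tested, 8 (9.88%) were called higher by edgeR and 0 by DESeq2, where the adjusted p of these 8 was at least 0.136. Summed over the 8, the level was 4060, 1519 and 2714 CPM with CBX1, 1738, 1177 and 1161 CPM with CBX1_W42A and 1086, 2879 and 1382 CPM in the control. The 73 others summed to 40740, 32710 and 39110 CPM with CBX1 and 42490, 30250 and 34780 CPM with CBX1_W42A. Without CBX1 replicate 1 or without CBX1_W42A replicate 3, 1 of the 8 was still called, and without CBX1 replicate 2 or CBX1_W42A replicate 1 all 8 were. Of 68 nuclear-encoded respiratory chain genes, COX7C and UQCRH were called by edgeR and 0 by DESeq2. COX7C had 383, 245 and 388 CPM against 244, 97.0 and 130 CPM, so that the lowest CBX1 library was just above the highest CBX1_W42A library. Ribosomal protein genes have many processed pseudogenes with which they can share reads. What sets these libraries apart was not tested.

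**Figure D4:**
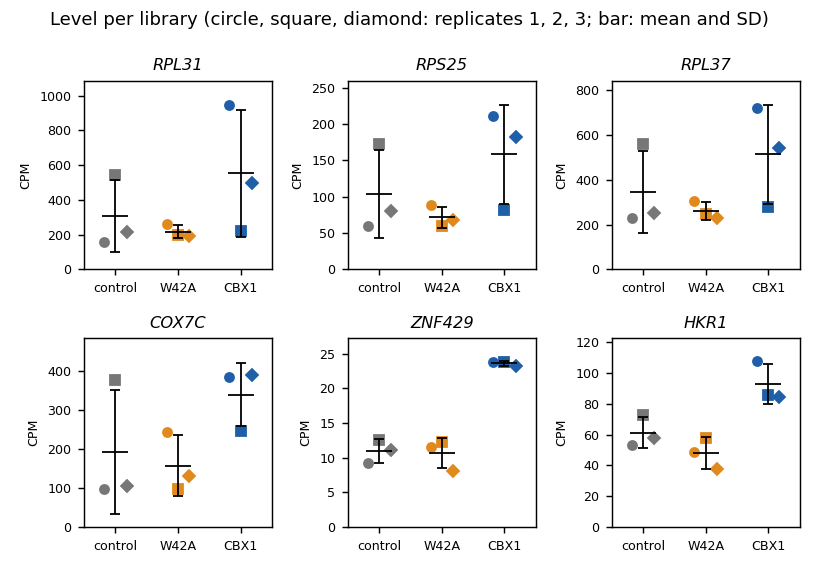
Each panel shows the CPM of 1 gene (y axis, from 0) in the 3 control, 3 CBX1_W42A and 3 CBX1 libraries; circle, square and diamond are replicates 1, 2 and 3, and the bar is the mean with its SD. In RPL31, RPS25 and RPL37 the control square lies near the higher CBX1 libraries and the CBX1 square lies near the CBX1_W42A libraries, while ZNF429 and HKR1 show all CBX1 libraries above all others.

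Among the 39 lower RNAs, 31 were protein coding and 8 noncoding. PDGFA (chr7:536895-559933), the platelet-derived growth factor A chain, had the smallest p. It had 3.25, 4.26 and 3.50 CPM with CBX1 and 9.86, 10.2 and 10.9 CPM with CBX1_W42A. This gave a log2 fold change of -1.51 (SE 0.21, adjusted p = 0.000691, edgeR quasi-likelihood test). The control had 12, 5.04 and 7.12 CPM, above all CBX1 libraries. NGFR (chr17:47572655-47592379), the p75 receptor of neurotrophins, had 9.74, 10.2 and 10.8 CPM with CBX1 and 19.3, 20.5 and 28.7 CPM with CBX1_W42A, with the control in between at 14.6, 13.1 and 14.6 CPM. The log2 fold change was -1.17 ± 0.17 (SE; adjusted p = 0.000748 in the same edgeR quasi-likelihood test).

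To show the start of a leading gene of each direction, the 200 bases before the annotated start of C19orf18 and PDGFA are printed 5′ to 3′ on the gene's strand, with each CpG in capitals. They are chr19:58485903-58486102 and chr7:559934-560133 of hg19, both on the minus strand, and they hold 0 and 10 CpG. The medians over the higher and lower protein-coding genes were 9 and 18 CpG, so neither sequence is typical of its direction.
C19orf18: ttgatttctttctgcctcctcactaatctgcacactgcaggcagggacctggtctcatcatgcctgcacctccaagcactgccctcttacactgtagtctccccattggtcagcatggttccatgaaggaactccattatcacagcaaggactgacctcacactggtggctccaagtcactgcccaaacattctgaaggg
PDGFA: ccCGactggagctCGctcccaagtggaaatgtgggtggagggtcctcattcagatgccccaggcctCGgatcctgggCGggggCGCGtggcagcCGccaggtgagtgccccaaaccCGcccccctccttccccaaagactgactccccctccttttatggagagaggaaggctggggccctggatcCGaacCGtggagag

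EGR2, an early response transcription factor of the hindbrain and of Schwann cells, had 3.47, 3.92 and 3.59 CPM with CBX1 and 8.96, 8.09 and 11.3 CPM with CBX1_W42A, a log2 fold change of -1.38 ± 0.22 (SE; adjusted p = 0.00187, edgeR quasi-likelihood test). DLL1, a Notch ligand, had 20.4, 27.6 and 21.9 CPM against 36.0, 40.4 and 45.9 CPM, a log2 fold change of -0.83 ± 0.14 (SE). The 2 groups did not overlap for either gene. The transcription factor genes BATF3 and SP9 had -1.13 (SE 0.18) and -0.77 (SE 0.14). BATF3 was at 21.8, 10.5 and 13.3 CPM with CBX1, 34.4, 31.2 and 33.2 CPM with CBX1_W42A and 10.7, 19.4 and 11.3 CPM in the control, so only the mutant libraries were apart.

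INHBB, a subunit of activin B and inhibin B, had 7.5, 6.61 and 9.13 CPM with CBX1 and 11.5, 18.4 and 18.1 CPM with CBX1_W42A, a log2 fold change of -1.05 ± 0.20 (SE). CHGA, chromogranin A of secretory granules, had 4.70, 4.93 and 6.41 CPM against 8.87, 15.9 and 12.2 CPM, with -1.21 (SE 0.22). EPCAM, an epithelial adhesion molecule, had 7.61, 5.94 and 7.67 CPM against 12.3, 17.2 and 14.6 CPM, with -1.06 (SE 0.19). The hair follicle protein gene TCHH had 22.9, 33.1 and 30.5 CPM against 42.9, 58.3 and 66.6 CPM, with -0.97 (SE 0.15). In each of the 4 the CBX1 libraries were all below the CBX1_W42A libraries. Named after their values were seen, the cytokine gene LIF, the activin subunit gene INHBE, the synaptic organizers CBLN1 and NXPH3, and the transcription factor genes MYB, OVOL2 and PRDM13 were also lower, with log2 fold changes between -1.70 (INHBE) and -0.77 (MYB).

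Of 123 homeobox genes outside the HOX clusters, a list added after the data were seen, 5 (4.07%) were lower and 0 higher; their median log2 fold change was -0.18 and 23.6% were positive. NKX1-2 had 1.79, 2.69 and 3.59 CPM with CBX1 and 7.87, 5.04 and 7.28 CPM with CBX1_W42A, a log2 fold change of -1.33 ± 0.28 (SE). NKX2-2, of neural tube and pancreas, had 5.60, 8.85 and 5.44 CPM against 11.2, 13.1 and 13.4 CPM, with -0.94 (SE 0.20), and PAX7, a muscle stem cell factor, was also called. Of 24 HOX genes 1 was lower, HOXA7 (-0.80, SE 0.17), and of 59 FOX, SOX and TBX genes, another list added after the data were seen, 1 was lower, FOXD3 (-1.30, SE 0.31); the medians of these lists were -0.15 and -0.13. Of 27 immediate early genes, EGR2 was lower at the thresholds and 4 were lower without the minimum fold change, with a list median of -0.15. Among the members named here, PAX7 and FOXD3 were called in 2 of the 6 fits that left out 1 library. NKX1-2 and NKX2-2 were called in 3 of these fits, HOXA7 in 4 and EGR2 in 6. In these 4 lists 0 members were higher at the thresholds, beside 0.795% of all genes tested, and the median of each list was below 0. Without the minimum fold change, 1 of the FOX, SOX and TBX genes was higher. The lists added after the data were seen were chosen with the lower calls known, so their lower members are no evidence of a direction. Most single members of the 4 lists did not pass the test.

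The called genes differed in structure from the rest, by measures that the test did not use. They also differed in level: the median over protein-coding genes with CBX1 was 6.03 CPM in the lower, 10.6 CPM in the higher and 28.2 CPM in all. With CBX1_W42A it was 12.3, 5.23 and 28.1 CPM. Whether the structure differs from that of other genes at the same level was not tested. The span from start to end had a median of 8.85 kb in the lower genes, 25.8 kb in the higher genes and 26.9 kb in all genes tested. Over protein-coding genes, the median number of separate exons was 4 in the lower, 7 in the higher and 11 in all, and the median exon GC content was 57.1%, 46.5% and 48.3%. Without the ZNF genes, the higher coding genes had a median exon GC content of 48.3% and 8 exons, beside 48.4% and 11 exons in all coding genes without them. The 200 bases before the start held a median of 18 CpG in the lower, 9 in the higher and 14 in all protein-coding genes. The motif GGGCGG, the GC box, searched on both strands of these windows, was found in 48.4% of lower, 34.5% of higher and 51.7% of all protein-coding genes. Exon structures came from a later annotation matched by gene identifier, for 98.1% of the higher and 100% of the lower genes.

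When all genes with known exons were put in 10 classes of equal size by exon GC content, the median log2 fold change lay between -0.034 and 0.023 in every class. The 3 classes of highest GC content held 23 of the 39 lower and 27 of the 154 higher genes, and the 2 highest held 14 and 15. With the trend of the fold change on exon GC content removed, 148 genes were higher and 39 lower, of which 146 and 36 were among the calls above.

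**Figure D5:**
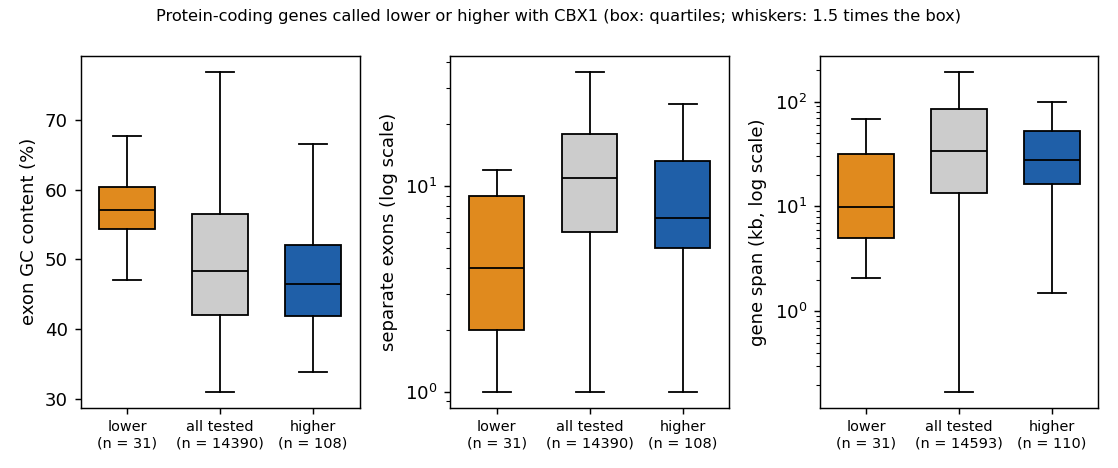
Boxes show exon GC content (%), the number of separate exons (log scale) and gene span (kb, log scale) of protein-coding genes lower with CBX1, of all tested and of those higher with CBX1; the line is the median, the box the quartiles and whiskers reach 1.5 times the box. Lower genes have a median exon GC content of 57.1% and 4 exons, beside 48.3% and 11 exons in all.

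Compared with the cells without a reader, which were not part of the test, the 2 directions differed. The mean of the control was below that of CBX1 for all 154 higher RNAs and below that of CBX1_W42A for 93 of them. Over the 19360 genes tested, it was below CBX1 for 10214 and below CBX1_W42A for 10210. The median log2 ratio of the 154 to the control was 1.26 with CBX1 and 0.18 with CBX1_W42A. Of the 39 lower RNAs, 35 had a control mean between those of CBX1 and CBX1_W42A. This held for 61 of the 154 higher RNAs and for 4720 of the 19360 genes tested. The median log2 ratio of the 39 to the control was -0.52 with CBX1 and 0.42 with CBX1_W42A. Both ratios use the same control libraries, and the calls select for a distance between the readers.

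The genes whose products write and read the mark mostly stayed under the thresholds. Of 27 genes of H3K9 methylation and HP1, 0 were called at the thresholds and their median log2 fold change was -0.026. ATF7IP, the partner that stabilizes SETDB1 in the nucleus, had 128, 119 and 126 CPM with CBX1 and 71.5, 81.2 and 69.7 CPM with CBX1_W42A, a log2 fold change of 0.73 ± 0.11 (SE; adjusted p = 0.000732, edgeR quasi-likelihood test), just under the minimum fold change. Of 27 Polycomb core genes, which act on H3K27me3, 0 were called and 25.9% of the log2 fold changes were positive, their median being -0.13; PHC3 had the smallest p (0.40, SE 0.11, adjusted p = 0.0609 in the same edgeR quasi-likelihood test).

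Of the 29 lists chosen for this comparison, 6 held a higher gene, 2 held a lower gene and 21 held neither. Endoplasmic reticulum chaperone genes had 1 of 19 positive log2 fold changes and a median of -0.16, and integrated stress response genes had 4 of 23 positive and a median of -0.20, with 0 called in both. Summed over the 19 chaperone genes, the level was 4538 to 4728 CPM with CBX1, 5027 to 5294 CPM with CBX1_W42A and 4821 to 5321 CPM in the control, so the readers did not overlap. CEBPG of the stress response list had a log2 fold change of -0.45 ± 0.11 (SE) and MANF of the chaperone list -0.31 (SE 0.10). HNRNPU, a nuclear matrix and hnRNP protein, had 1669, 1859 and 1834 CPM with CBX1 and 2323, 2566 and 2540 CPM with CBX1_W42A, a log2 fold change of -0.49 ± 0.10 (SE; adjusted p = 0.0133, edgeR quasi-likelihood test), with 0 of 38 SR protein, hnRNP and CLK genes called at the thresholds.

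All 8 protocadherin cluster genes tested had positive log2 fold changes with a median of 1.24, but at levels near 1 CPM and with 0 called; PCDHGA1 had 1.57, 2.69 and 1.36 CPM against 0.452, 1.58 and 0.211 CPM, which overlapped. Replication-dependent histone genes (39), mitochondrial transcripts (23), imprinted genes (23), potassium channel genes (64), heat shock genes (17) and interferon-stimulated genes (22) each had 0 called. Among these 6 lists the largest shift of a median was -0.20, in the heat shock genes. So had the lists of small nucleolar RNA host genes (15), cholesterol synthesis (21), oxidative stress (18), p53 targets (20), hypoxia (20), mitosis (26), DNA replication (25) and olfactory receptors (2), whose median log2 fold changes lay between -0.084 and 0.095. IFI27, an interferon-stimulated gene, had 22.9, 24.5 and 23.2 CPM with CBX1 and 13.4, 14.5 and 15.9 CPM with CBX1_W42A, a log2 fold change of 0.67 ± 0.14 (SE; adjusted p = 0.0126, edgeR quasi-likelihood test), under the minimum fold change. H19 had 13, 16.2 and 19.4 CPM against 9.95, 9.77 and 11.7 CPM, with 0.62 (SE 0.18, adjusted p = 0.0645 in the same edgeR quasi-likelihood test).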

How the data were processed

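Chrom-seq libraries from HEK293T cells were analysed as deposited counts. According to the methods of the study and the labels, the authors used fastp (version 0.23.1) for trimming, HISAT2 (version 2.1.0) for alignment to hg19, and featureCounts (version 2.0.1) with the GENCODE v19 genes for counting. The deposited counts were whole numbers without normalization, over the whole span of each gene; a read within several genes of the same strand went to none of them. 0 entries named no gene, and 0 sample columns were left out. Groups and replicates came from the labels.

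The 6 libraries were tested with edgeR (version 4.0.16, in R version 4.3.3): TMM factors, quasi-likelihood fit and test, Benjamini-Hochberg adjustment over the 19360 genes with a summed count above 18. The thresholds for a call were 0.05 (adjusted p) and 0.75 (size of the log2 fold change). The standard error was the log2 fold change divided by the square root of the F statistic. CPM values used TMM factors over all 9 libraries, log2 CPM for the principal components a prior count of 2, and ratios to the control a pseudocount of 0.5. DESeq2 (version 1.42.0) was an alternative, beside other scalings, filters, thresholds, the replicate number as a block and leaving out each library; robust dispersions and removal of trends on exon GC content and exon length were added after the data were seen. The test was checked on simulated counts. Sequences were read from the hg19 reference genome with pysam (version 0.24.0), gene spans from the deposited table and exons from GENCODE v44 lifted to hg19.

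The comparison, the genes and the 29 lists were chosen with earlier results of these data known, so no list has a p of its own; 3 lists were added after the data were seen. Named genes were the 14 coding and 8 noncoding higher genes and the 12 lower genes with the smallest p, CBX1, and in each list up to 4 called members, or 1 member with the smallest p where none was called. Some genes and upstream sequences that this rule covers are not reported here. With 8703898 to 11082852 counts per library, genes near 1 CPM rest on about 10 counts each.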

Additional observations from a re-analysis of the deposited data

How the results depend on the processing

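The counts of 154 higher and 39 lower RNAs were within 1.5 times of these values under RLE, upper-quartile and library size scaling (159, 168 and 185 higher; 38, 33 and 32 lower), DESeq2 (138 and 36), filterByExpr (156 and 35), a minimum of 10 counts in every library (138 and 30), the fit of all 9 libraries (125 and 33), and, chosen after seeing the data, robust dispersions (157 and 42) and removal of the trends on exon GC content (148 and 39) and exon length (150 and 36). They were 244 and 70 without a filter on low counts, 102 and 23 at a minimum log2 fold change of 1, 255 and 179 with no minimum, and 2 and 0 when the change had to exceed log2 0.75. With each library left out in turn, they lay between 68 (without CBX1 replicate 1) and 184 (without CBX1_W42A replicate 2), and between 17 (without CBX1 replicate 1) and 46 (without CBX1 replicate 2). The replicate number as a block gave 250 and 66, with 152 and 39 shared. The correlations of same-numbered deviations were 0.158, 0.079 and 0.114, all positive, and those of differently numbered ones lay between -0.187 and 0.0846. However, CBX1 replicate 2 correlated best with CBX1_W42A replicate 3 (0.0846). These values do not settle whether the numbers pair the samples, and the main test used no block. Among the named genes, 1 changed sign: the log2 fold change of OR2B6, an olfactory receptor gene with under 1 CPM in every library, was -0.15, became 0.14 without CBX1 replicate 1 and was -0.33 without CBX1 replicate 3. The scalings left the median of all genes within 0.04 of 0. The causes of these differences were not tested. Genes under about 1 CPM hold few counts, so for them only large changes were detectable at this depth.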

Other observations

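A few further genes of the comparison, all named after their values were seen, carry known functions that the lists did not cover. Among the higher RNAs, TAC3, the precursor of neurokinin B, had a mean of 16.7 CPM against 7.62 CPM with CBX1_W42A (log2 fold change 1.12), and IL34, a ligand of the CSF1 receptor, had 12.2 CPM against 5.38 CPM (1.16). TF, the iron carrier transferrin, had 7.09 CPM against 3.10 CPM (1.18), and ESR1, the estrogen receptor alpha, had 3.46 CPM against 1.22 CPM (1.46). Of the 6 fits that left out 1 library, 2 called TF and 1 called ESR1, whereas all 6 called TAC3 and IL34. HES5, a target gene of Notch, had 5.40 CPM against 1.79 CPM (1.56), while the Notch ligand DLL1 was lower, at 23.3 CPM against 40.8 CPM (-0.83). RN7SK, the small nuclear RNA that holds the elongation factor P-TEFb inactive, had 133, 56 and 63 counts with CBX1 and 38, 33 and 45 counts with CBX1_W42A, so its log2 fold change of 1.21 leaned on CBX1 replicate 1.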
